A study of Homo sapiens with 6 samples.

Results

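The genes that feed back on ERK signalling were examined in HK-2, a long-used cell line from the proximal tubule of human kidney, with and without overexpression of hnRNP-F, an RNA-binding protein that regulates splicing. The 10 genes were taken by symbol from the 31831 genes of the count table: the phosphatase genes DUSP1, DUSP4, DUSP5 and DUSP6, the Sprouty genes SPRY1, SPRY2 and SPRY4, the Sprouty-related genes SPRED1 and SPRED2, and the transcription factor gene ETV5. Each symbol matched 1 row, and all 10 passed the low-count filter that left 17142 genes for testing. The control group (HG-NC) carried a control lentivirus with an empty vector and the overexpression group (HG-OE) an hnRNP-F lentivirus, with 3 libraries per group. Cells of both groups were kept in 30 mM glucose for 72 h, so no library here shows the genes at normal glucose. The wells of a group ran in parallel from transduced cells of a single line, and p-values therefore measure the spread between such wells.

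ERK, the last kinase of the RAS-RAF-MEK-ERK cascade, carries signals of growth factor receptors to the nucleus and switches on the genes of its own inhibitors. DUSP proteins of this group are MAP kinase phosphatases, which remove both activating phosphates from a MAP kinase. Sprouty and SPRED proteins act further upstream and limit the activation of RAS and RAF. ETV5 is an ETS-family transcription factor whose gene is a common transcriptional target of ERK. In kidney, Sprouty genes are known for restraining growth factor signals during branching of the ureteric bud. A transcript level alone does not measure the phosphorylation of ERK, which these data do not hold.

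After hnRNP-F overexpression the 10 genes did not move as 1 block. DUSP5, SPRY2, SPRED2 and ETV5 fell, DUSP6 and DUSP1 rose, and SPRY1, SPRY4 and SPRED1 did not pass the test. DUSP4 was called higher on the counts of a single library. The largest fall was that of DUSP5, the nuclear phosphatase specific for ERK, by 42.2% on the fitted scale, whereas DUSP6, the cytoplasmic phosphatase specific for ERK, rose by 24.2%. At an adjusted p under 0.05 (quasi-likelihood test of edgeR, adjusted by Benjamini and Hochberg's method over all genes tested), 3 of the 10 genes were higher and 4 lower in HG-OE, where 25.9% of all genes tested were higher and 25.9% lower, or 51.8% in either direction. At the study's further threshold of a 2-fold change, 1 of the 10 was called, DUSP4, where 5.82% of all genes were. The CPM values (counts scaled to a common library size by the TMM method) of HG-NC and HG-OE did not overlap for 6 of the 10 genes, and did not overlap for 59.0% of all genes tested. Counts of this size are near those of all genes, and what follows is the size and direction of each gene's change. The median log2 fold change of the 10 was -0.16 and that of all genes tested 0.011.

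**Figure D1:**
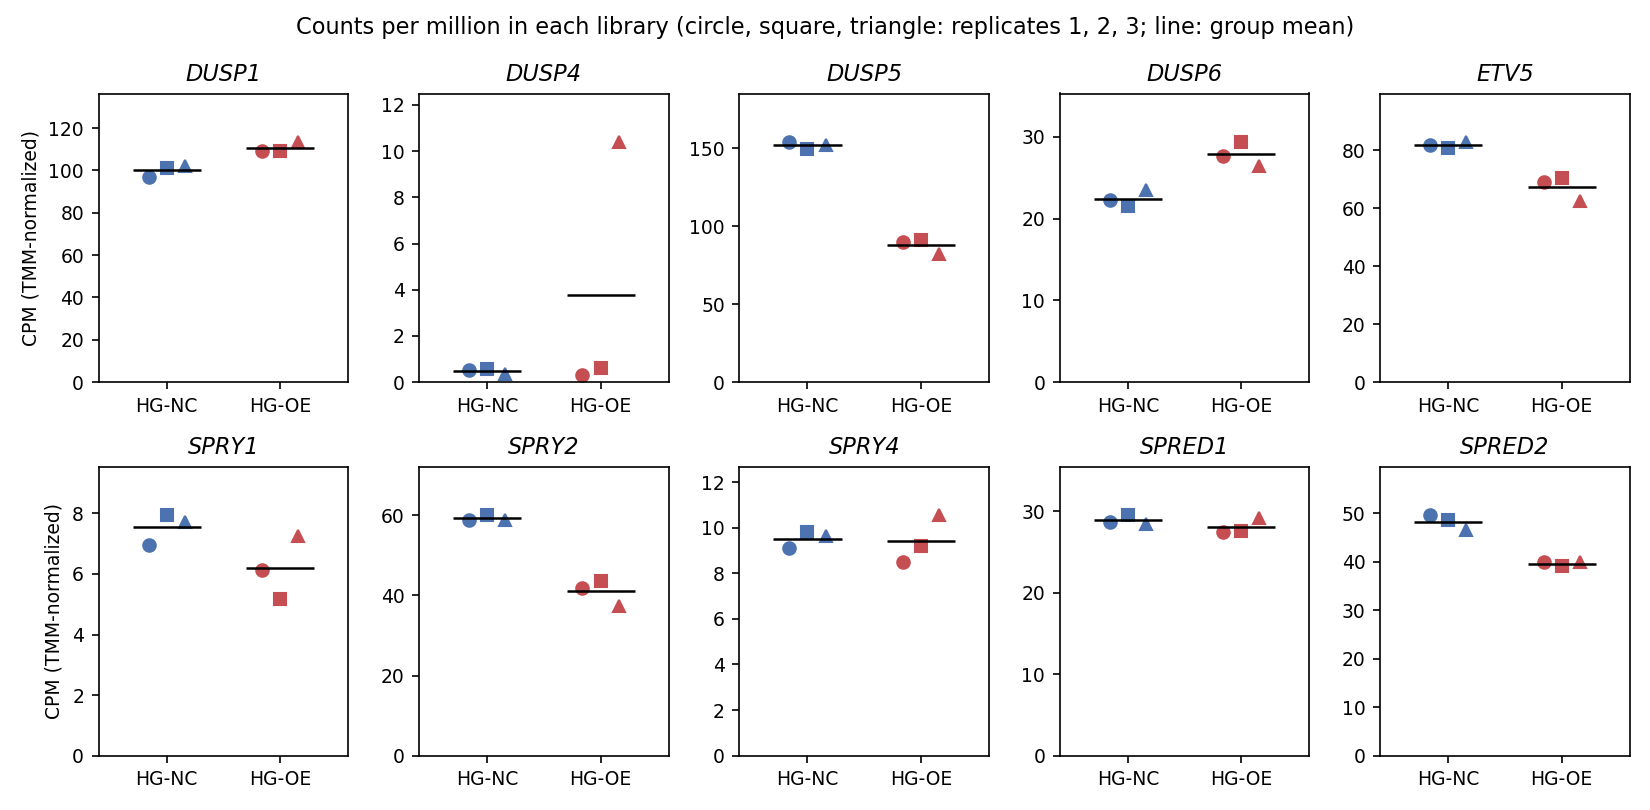
CPM (y axis, from 0) of the 10 genes in the 3 HG-NC (blue) and 3 HG-OE (red) libraries, with circle, square and triangle for replicates 1, 2 and 3 and a line for the group mean. The groups are apart for DUSP1, DUSP5, DUSP6, ETV5, SPRY2 and SPRED2, and DUSP4 is high only in HG-OE replicate 3, at 10.4 CPM.

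Upstream sequences of some of the genes are shown as background, because genes of this kind are induced through their promoters. Whether the letters had a part in the rises and falls was not tested. SPRED2, which also fell, is not printed. RefSeq's table on GRCh38.p14 held 7 of the 10 genes, with 11 start sites. DUSP4, DUSP5 and ETV5 had no entry. The 250 bases before the start site of DUSP1 and DUSP6, which rose, and before the first listed start site of SPRY2, which fell, follow 5′ to 3′ on the strand of the gene. Capitals mark matches to the cAMP response element TGACGTCA, its core TGACG, the SP1 box GGGCGG, the ETS site CCGGAAG, the AP-1 site TGACTCA and the CArG box of serum response factor, searched on both strands, and to TATAAA on the strand of the gene. The full element contains its core on both strands.
DUSP1, chr5:172771196-172771445, minus strand: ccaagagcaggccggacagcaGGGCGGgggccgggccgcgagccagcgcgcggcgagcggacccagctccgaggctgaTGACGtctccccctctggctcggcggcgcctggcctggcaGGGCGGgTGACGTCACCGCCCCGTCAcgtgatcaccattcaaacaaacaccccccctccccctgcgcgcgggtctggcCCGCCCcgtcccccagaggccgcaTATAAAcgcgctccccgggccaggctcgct
DUSP6, chr12:89352502-89352751, minus strand: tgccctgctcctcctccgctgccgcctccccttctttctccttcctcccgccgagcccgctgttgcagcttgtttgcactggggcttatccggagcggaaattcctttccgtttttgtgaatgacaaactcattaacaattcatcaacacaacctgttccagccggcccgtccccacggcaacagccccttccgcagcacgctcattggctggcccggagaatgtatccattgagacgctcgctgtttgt
SPRY2, chr13:80341127-80341376, minus strand: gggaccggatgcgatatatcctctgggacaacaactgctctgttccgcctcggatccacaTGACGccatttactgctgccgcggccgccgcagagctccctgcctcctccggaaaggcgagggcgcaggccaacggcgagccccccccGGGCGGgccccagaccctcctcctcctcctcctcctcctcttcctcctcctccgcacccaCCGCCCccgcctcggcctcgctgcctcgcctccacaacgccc
DUSP1 held 1 full cAMP response element, which starts 125 bases before the start site, 4 cores with the pair inside the full element counted, 4 SP1 boxes and 1 TATA box at 30 bases. SPRY2 held 1 core at 190 bases and 2 SP1 boxes before this start site, and no match before its other listed start sites. DUSP6 held no match to any of these letters. Of the start sites not printed, 1 of SPRY1 held an ETS site and 2 SP1 boxes, that of SPRY4 a core and 1 SP1 box, that of SPRED1 1 SP1 box and 1 of SPRED2 a TATA box. Of 35114 promoters of the same length, 1.65% held the full element, 21.2% a core, 42.6% an SP1 box and 6.80% TATAAA. ETS sites were in 8.52%, AP-1 sites in 4.20% and CArG boxes in 1.16%, and none of these was in the 3 sequences shown. A match is a description of the letters. Binding of factors was not measured here.

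As a check of the labels, HNRNPF itself was at 304, 319 and 311 CPM in HG-NC and at 430, 452 and 423 CPM in HG-OE. The fitted level was 1.40 times higher in HG-OE (adjusted p = 2.80e-07, edgeR), and 25.9% of all genes tested also passed as higher. The paper gives the same gene ID for the inserts of its human and its mouse cells, and reads were mapped to the human genome. Whether this rise holds the transcripts of the insert was not tested. Library totals were 25507595 to 29444841 counted read pairs. The totals of HG-OE were all above those of HG-NC. HG-OE replicate 3 stood apart from the other HG-OE libraries: its counts differed from those of HG-OE replicates 1 and 2 by chi-square values of 11.5 and 11.1 per gene, against 2.71 between these and 2.18 to 3.48 within HG-NC. All pairs differed by more than sampling noise (a value near 1). PAX8, a kidney lineage factor, had 11953 to 18291 counts in each library. Of 12 proximal tubule markers, 10 were in the count table and 5 passed the filter, with a summed level of 608 to 662 CPM in HG-NC and 432 to 479 CPM in HG-OE, most of it from PAX8. The transporter genes SLC22A6 and SLC22A8 had no count, and the endocytic receptor gene LRP2 was at 0 except for 17 counts in HG-OE replicate 3. Results that rest on HG-OE replicate 3 are therefore given with and without it. In bulk libraries such as these, a change in how many cells express a gene and a change per cell cannot be told apart.

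DUSP5 (ENSG00000138166.6, chromosome 10, 110497907 to 110511533, plus strand, GENCODE 44 on GRCh38) encodes the inducible nuclear phosphatase that acts on ERK. Its CPM values were 154, 149 and 152 in HG-NC and 89.9, 91.1 and 82.4 in HG-OE, for replicates 1, 2 and 3 in each group. Every HG-OE library lay far below every HG-NC library. The means were 152 ± 2.53 and 87.8 ± 4.76 CPM (mean ± SD, n = 3 libraries each), and the log2 fold change was -0.79 (standard error, SE, 0.0452, adjusted p = 1.40e-08, edgeR), short of 2-fold. An exact two-sided permutation test gave p = 0.1, the smallest that 3 libraries against 3 allow. Without HG-OE replicate 3 the log2 fold change was -0.75. The 93 neighbouring genes within 10 Mb with a mean of at least 100 counts had a median log2 fold change of -0.049, and 92 of them lay above DUSP5. DUSP5-DT, the lncRNA transcribed divergently from the same promoter region, had 53, 36 and 56 counts in HG-NC and 46, 43 and 29 in HG-OE. Its log2 fold change of -0.42 did not pass the test (95% interval -0.97 to 0.14, adjusted p = 0.194).

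DUSP6 (ENSG00000139318.8, chromosome 12, 89347235 to 89352501, minus strand) encodes the cytoplasmic phosphatase that binds and inactivates ERK. It was at 22.3, 21.5 and 23.5 CPM in HG-NC and at 27.7, 29.4 and 26.5 CPM in HG-OE replicates 1, 2 and 3. The lowest HG-OE value was above the highest HG-NC value. The means of 22.4 ± 0.995 and 27.9 ± 1.48 CPM (SD, n = 3) gave a log2 fold change of 0.31 (SE 0.0647, adjusted p = 0.00109, edgeR). Leaving out HG-OE replicate 3 gave 0.35. Its 41 neighbours had a median of -0.13, in the other direction, and 7 of them lay above DUSP6. A lncRNA on the opposite strand, ENSG00000274021, shares 1105 exonic bases with DUSP6, and it had 2 to 8 counts per library against 566 to 857 for DUSP6. The libraries were directional, and whether the counting used the strand is not given in the sources used here.

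DUSP1 (ENSG00000120129.6, chromosome 5, 172768096 to 172771195, minus strand) encodes an immediate-early nuclear phosphatase that acts mainly on p38 and JNK and also on ERK. Its values were 96.7, 101 and 102 CPM in HG-NC and 109, 109 and 114 CPM in HG-OE replicates 1, 2 and 3. The groups did not overlap, but the gap was small. The log2 fold change was 0.14 (SE 0.0412, adjusted p = 0.00953, edgeR), a rise of 10.5%. DUSP1 lies in a stretch whose genes were higher as a whole: its 90 neighbours had a median log2 fold change of 0.47, 75 of them passed the test as higher and 4 as lower, and 77 lay above DUSP1. With the neighbours' median subtracted, DUSP1 was at -0.32, so the direction of its change depends on whether it is read against all genes or against its region. The part of the region in the level of DUSP1 was not tested.

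DUSP4 (ENSG00000120875.9, chromosome 8, 29333064 to 29350684, minus strand), the gene of a further nuclear phosphatase, was scarcely transcribed in these cells. The 3 HG-NC libraries held 13, 16 and 10 counts, and HG-OE replicates 1, 2 and 3 held 9, 18 and 305. HG-OE replicate 1 lay just below and replicate 2 just above the HG-NC libraries, and replicate 3 held 91.9% of the counts of DUSP4 in HG-OE while it held 33.6% of all counts of HG-OE. In replicate 3 the count came to 10.4 CPM of the library total (95% Poisson interval 9.23 to 11.6, which covers counting error only), and in the other 5 libraries the upper bounds of the intervals ran from 0.590 to 0.973 CPM. The log2 fold change over all libraries was 2.95 (SE 0.976, adjusted p = 0.0207, edgeR). Without HG-OE replicate 3 it was -0.063 (95% interval -0.99 to 0.86, adjusted p = 0.922). With any 1 of the HG-NC libraries left out instead, the adjusted p was 0.0875, 0.0760 or 0.0876 (edgeR), so the call needed all 3 of them. Of the 12276 genes tested with at least as many HG-OE counts as DUSP4, 13 had at least its share in replicate 3, DUSP4 among them, and 63 of all genes tested had at least 80% of their HG-OE counts there.

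Most hepatocyte markers, and some genes of the other marker lists, were highest in the same library. Of 7 hepatocyte markers, 6 were highest in HG-OE replicate 3. ALB had 4, 1 and 78 counts in HG-NC, 0 and 1 in HG-OE replicates 1 and 2 and 4359 in HG-OE replicate 3. TF had 1006 counts there and at most 11 elsewhere, and APOB 1583 and at most 53. Summed over the 7 genes, the level was 265 to 276 CPM in HG-NC and 461, 463 and 669 CPM in HG-OE, most of it from SERPINA1. Of 5 genes of simple epithelium, 3 were highest in this library, among them CDH1 with 384 counts against 2 to 10, and the summed level was 831 to 847 CPM in HG-NC and 1115 to 1754 CPM in HG-OE. HNF4A, a factor of both liver and proximal tubule, had 323 counts there and 0 in each of the other 5 libraries. Among fibroblast markers, 2 of 6 were highest in this library, with sums of 35.6 to 39.0 CPM in HG-NC and 31.8 to 41.5 CPM in HG-OE, and COL1A2 was at 0 in the other 5 libraries. For the leukocyte list this held for 2 of 4 genes (2.68 to 3.07 and 1.51 to 2.94 CPM), and for the endothelial list for 1 of 4 (0.393 to 0.591 and 0.990 to 1.38 CPM), in which KDR had no count. Whether cells of another type had a part in the level of DUSP4 was not tested.

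SPRY2 (ENSG00000136158.12, chromosome 13, 80335976 to 80341126, minus strand) was the Sprouty gene with the highest level. It was at 58.9, 60.1 and 58.9 CPM in HG-NC and at 41.9, 43.7 and 37.4 CPM in HG-OE replicates 1, 2 and 3. The HG-OE libraries were all lower. The means were 59.3 ± 0.666 and 41.0 ± 3.24 CPM (SD, n = 3) and the log2 fold change was -0.53 (SE 0.0583, adjusted p = 4.95e-06, edgeR), so SPRY2 fell by 30.8%, and without HG-OE replicate 3 the log2 fold change was -0.47. Its 19 neighbours had a median of -0.066, and 18 of them lay above SPRY2.

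SPRY1 (ENSG00000164056.11, chromosome 4, 123396795 to 123403760, plus strand) was counted much less, with 6.96, 7.94 and 7.73 CPM in HG-NC and 6.13, 5.19 and 7.24 CPM in HG-OE. HG-OE replicate 3 fell inside the range of HG-NC, while replicates 1 and 2 lay below it. Over all libraries the log2 fold change was -0.29 (95% interval -0.57 to -0.0014, adjusted p = 0.0859, edgeR), which is not past the threshold, and without HG-OE replicate 3 it was -0.42 (adjusted p = 0.00476). The 38 neighbours of SPRY1 had a median of -0.38, and 26 of them passed the test as lower.

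SPRY4 (ENSG00000187678.10, chromosome 5, 142310427 to 142326455, minus strand) had 9.12, 9.79 and 9.62 CPM in HG-NC and 8.51, 9.20 and 10.6 CPM in HG-OE. HG-OE replicate 1 lay below the HG-NC libraries, replicate 2 among them and replicate 3 above them. Its log2 fold change was -0.014 (95% interval -0.24 to 0.21, adjusted p = 0.920, edgeR), an interval that allows a moderate change in either direction. On the same chromosome as DUSP1, and like it, SPRY4 sat among genes that were higher: 94 of its 127 neighbours passed the test as higher, their median was 0.34, and 112 lay above SPRY4. The windows of SPRY4 and DUSP1 share no gene. The antisense gene SPRY4-AS1 overlaps SPRY4 with no shared exonic base and had 18 to 38 counts per library.

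SPRED2 (ENSG00000198369.10, chromosome 2, 65310851 to 65432637, minus strand), whose product brings neurofibromin to the membrane to switch off RAS, fell. Its values were 49.6, 48.6 and 46.5 CPM in HG-NC and 39.9, 39.1 and 39.9 CPM in HG-OE replicates 1, 2 and 3. Both groups were tight and did not overlap, with means of 48.2 ± 1.59 and 39.6 ± 0.476 CPM (SD, n = 3). The log2 fold change was -0.28 (SE 0.0498, adjusted p = 3.09e-04, edgeR). Its 108 neighbours had a median of -0.28 as well, with 73 lower and 5 higher, and with that median subtracted SPRED2 was at -0.0050. Of these neighbours 55 lay above SPRED2 and 53 below it.

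SPRED1 (ENSG00000166068.13, chromosome 15, 38252836 to 38357249, plus strand), its close relative, was at 28.7, 29.6 and 28.4 CPM in HG-NC and at 27.5, 27.6 and 29.2 CPM in HG-OE. The ranges overlapped. The log2 fold change was -0.041 (95% interval -0.16 to 0.081, adjusted p = 0.576, edgeR), and its 112 neighbours had a median of -0.022.

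ETV5 (ENSG00000244405.8, chromosome 3, 186046314 to 186110318, minus strand), the target and effector of ERK on this list, was at 81.8, 80.7 and 82.9 CPM in HG-NC and at 69.0, 70.4 and 62.4 CPM in HG-OE replicates 1, 2 and 3. Each HG-OE library was lower, replicate 3 the most. The means were 81.8 ± 1.10 and 67.3 ± 4.30 CPM (SD, n = 3), and the log2 fold change was -0.28 (SE 0.0502, adjusted p = 3.40e-04, edgeR), or -0.23 without HG-OE replicate 3. The 76 neighbours had a median of -0.11, and with it subtracted ETV5 was at -0.17. DGKG, a gene on the same strand, shares 164 exonic bases with ETV5 and had a log2 fold change of 0.31, opposite to that of ETV5 (adjusted p = 0.0119, edgeR).

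**Figure D2:**
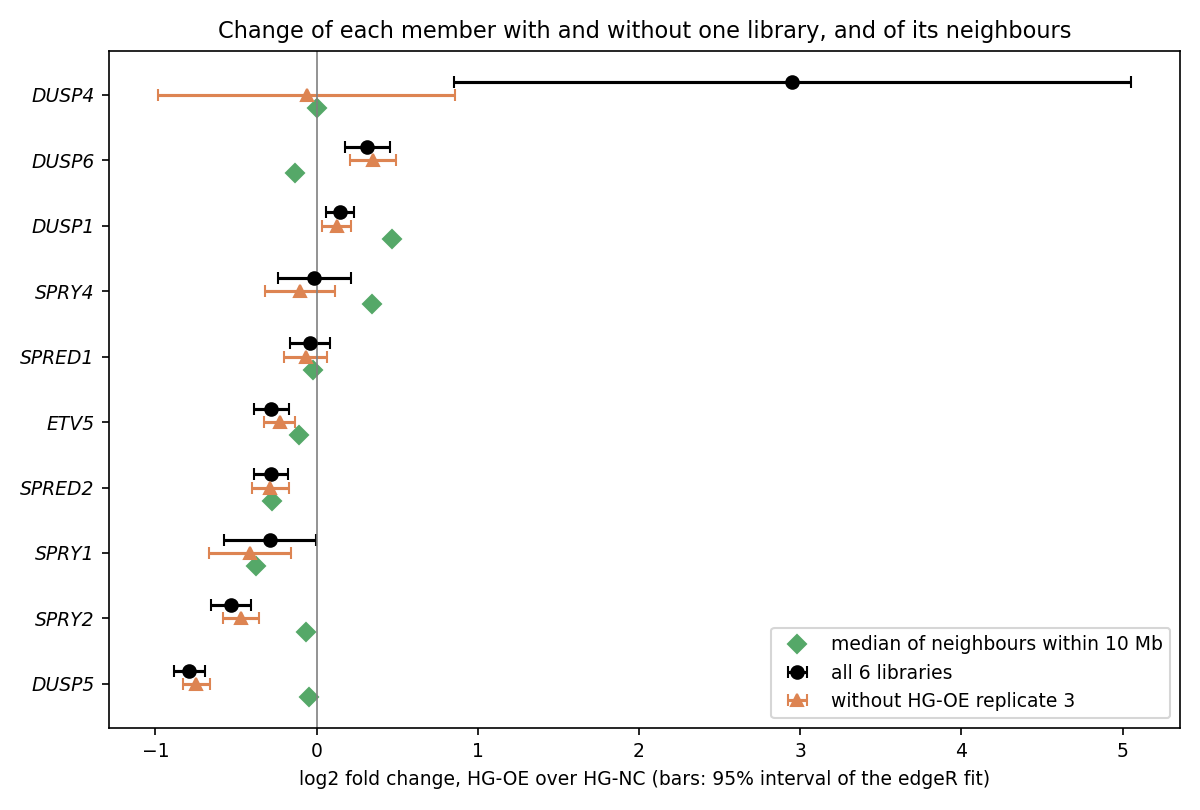
Log2 fold change of HG-OE over HG-NC (x axis) for each gene with all 6 libraries (black circles) and without HG-OE replicate 3 (orange triangles), with 95% intervals, and the median of the neighbours within 10 Mb (green diamonds). DUSP4 moves from 2.95 to -0.063 without that library. DUSP5, SPRY2, DUSP6, DUSP1 and SPRY4 lie away from their neighbours' medians, though 7 of 41 neighbours lie above DUSP6. SPRED2 lies on its neighbours' median of -0.28.

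**Figure D3:**
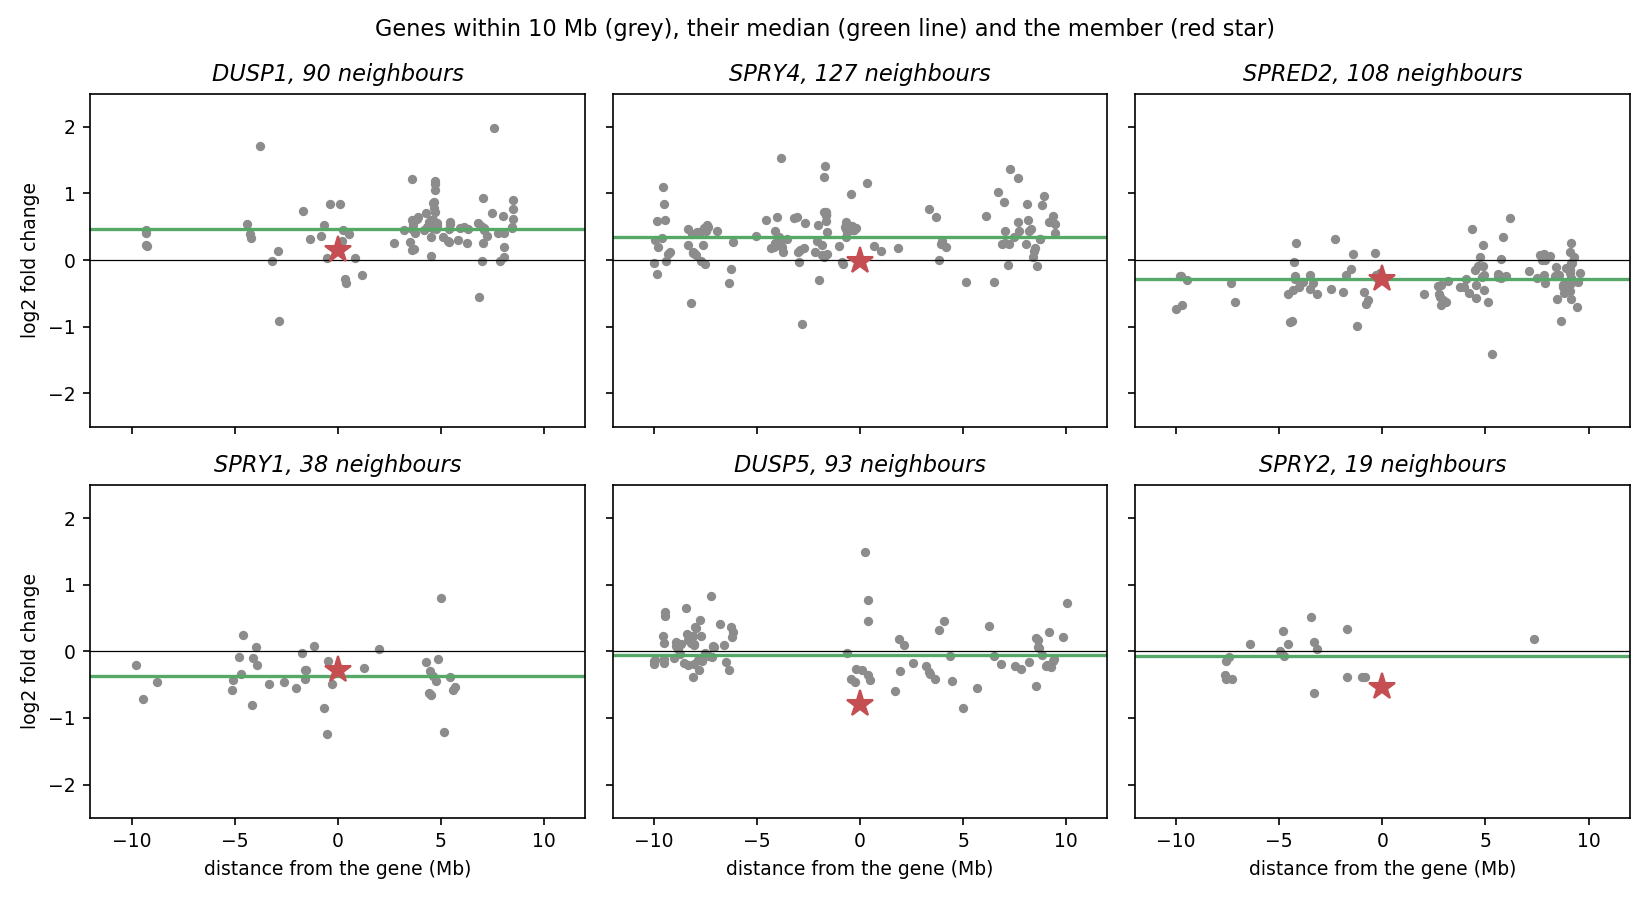
Log2 fold change (y axis) of each gene with at least 100 counts within 10 Mb (grey points) against its distance in Mb from DUSP1, SPRY4, SPRED2, SPRY1, DUSP5 or SPRY2 (red star), with the neighbours' median as a green line. The medians are 0.47 around DUSP1, 0.34 around SPRY4, -0.28 around SPRED2 and -0.38 around SPRY1, and close to 0 around DUSP5 and SPRY2, whose stars lie below nearly all of their neighbours.

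Levels of different genes were compared as FPKM, the authors' values, which are scaled by transcript length and library size. In HG-NC the order was DUSP5 (53.6 ± 0.907), DUSP1 (44.5 ± 1.42), SPRY2 (16.5 ± 0.172), ETV5 (12.7 ± 0.212), SPRED2 (7.84 ± 0.228), DUSP6 (5.20 ± 0.244), SPRED1 (3.34 ± 0.0608), SPRY1 (1.70 ± 0.117), SPRY4 (1.30 ± 0.0493) and DUSP4 (0.0567 ± 0.0153), all mean ± SD with n = 3. Genes next to each other in that order did not overlap in their 3 libraries. In HG-OE the first place went to DUSP1 (48.6 ± 1.18) and the next to DUSP5 (30.65 ± 1.65), so that these phosphatases changed places. SPRY2 (11.3 ± 0.879) and ETV5 (10.3 ± 0.651) overlapped there, as did DUSP6 (6.39 ± 0.320) and SPRED2 (6.37 ± 0.110), and SPRY1 (1.38 ± 0.235) and SPRY4 (1.27 ± 0.133). SPRED1 was at 3.21 ± 0.114. DUSP4 was at 0.04, 0.07 and 1.27 FPKM in HG-OE replicates 1, 2 and 3.

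Within a library, the FPKM of DUSP5 was 1.27, 1.17 and 1.18 times that of DUSP1 in HG-NC and 0.656, 0.663 and 0.576 times in HG-OE. Against DUSP6 the ratio of DUSP5 was 10.3 ± 0.389 in HG-NC and 4.80 ± 0.128 in HG-OE (SD, n = 3). The SPRY2 to SPRY4 ratio was 12.7 ± 0.390 and 8.97 ± 1.50, and the SPRED2 to SPRED1 ratio 2.35 ± 0.0716 and 1.99 ± 0.0632. For each of these 4 ratios the groups did not overlap (exact two-sided permutation test, p = 0.1 each, the smallest possible with n = 3 against 3). Summed FPKM fell by 16.6% for the 4 DUSP genes (103 ± 1.50 to 86.1 ± 0.0961), fell by 28.5% for the 3 Sprouty genes (19.5 ± 0.327 to 13.95 ± 0.539) and fell by 14.3% for the 2 SPRED genes (11.2 ± 0.250 to 9.58 ± 0.188), each again without overlap (exact permutation p = 0.1). Genes with higher levels weigh more in these sums. The ratios and sums were chosen after the values were seen, so their separation adds no test beyond that of the single genes. In CPM, the groups did not overlap for 59.0% of all genes tested. Of the 4 DUSP genes only DUSP5 had a lower mean FPKM in HG-OE, at 30.65 against 53.6 in HG-NC.

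**Figure D4:**
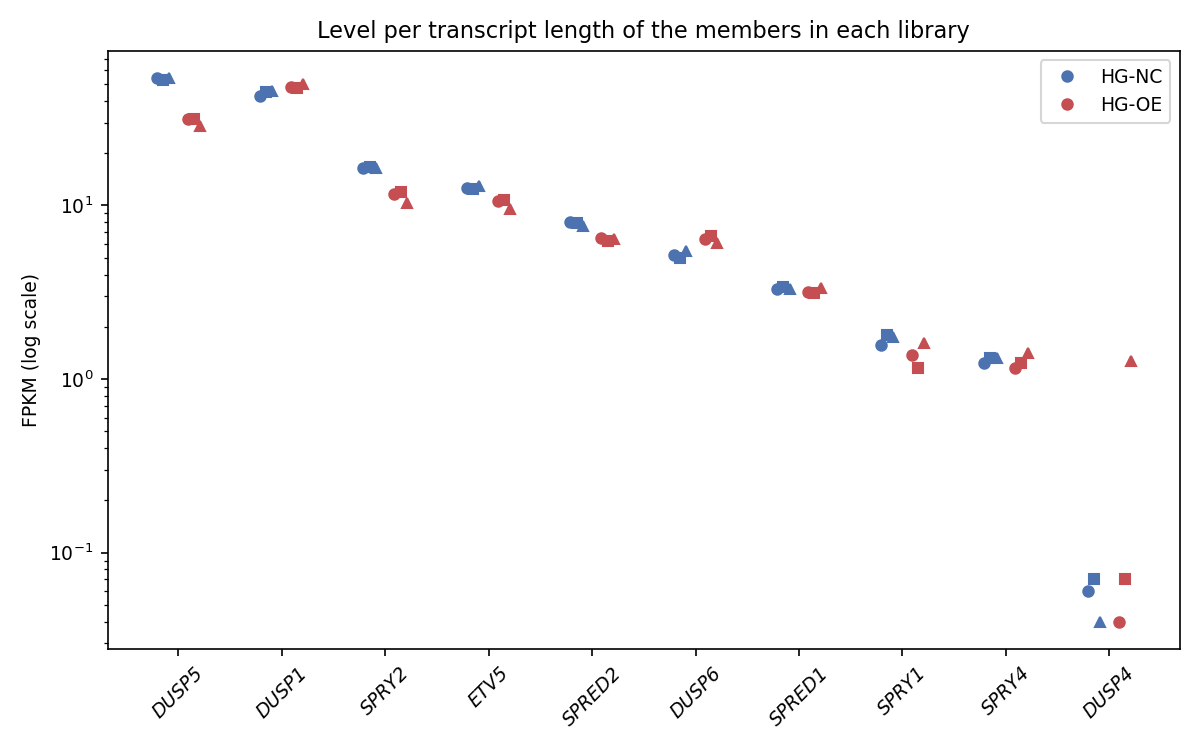
FPKM (y axis, log scale) of the 10 genes in each library, ordered by the HG-NC mean, with HG-NC in blue and HG-OE in red and circle, square and triangle for replicates 1, 2 and 3. DUSP5 leads DUSP1 in HG-NC, at 53.6 against 44.5, and DUSP1 leads in HG-OE, at 48.6 against 30.65.

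Over the 6 libraries, the protein-coding genes whose log2 CPM went most closely with that of DUSP6 among 11561 with at least 100 counts were SMDT1, ADIPOR1 and TYSND1 (Pearson's r = 0.996, 0.996 and 0.996). The 6 points are in 2 groups that differ, and 650 genes reached at least 0.95, so a great many genes share this pattern.

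The other MAP kinase phosphatases also split. Of 6 genes, 2 were higher and 3 lower at an adjusted p under 0.05, where 25.9% of all genes were higher and 25.9% lower. The median log2 fold change of the 6 was -0.095 against 0.011 for all genes tested. DUSP2, an inducible nuclear phosphatase, fell from 3.37 ± 0.477 to 2.18 ± 0.124 CPM (log2 fold change -0.62, adjusted p = 0.00901, edgeR). DUSP16 and DUSP10, which act on JNK and p38, fell by 0.18 and 0.13 on the log2 scale, and neither passed the test without HG-OE replicate 3 (adjusted p = 0.0647 and 0.177, edgeR). DUSP7, the cytoplasmic relative of DUSP6, rose by 0.31, with neighbours at a median of 0.53. DUSP9, the third cytoplasmic ERK phosphatase, had 210 to 275 counts in 5 libraries and 1929 in HG-OE replicate 3, the same library in which DUSP4 was high, and its log2 fold change went from 1.57 to -0.11 without it (adjusted p = 0.423).

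Of 12 other negative regulators of RAS and ERK signalling, 11 were tested and all 11 passed the test, 8 as lower and 3 as higher, where 51.8% of all genes passed. Their median log2 fold change was -0.27, and -0.085 with each gene's neighbours' median removed. Without HG-OE replicate 3, 6 were lower and 3 higher. The falls were led by RASA1, a GTPase-activating protein of RAS (-0.54, adjusted p = 2.73e-06), ERRFI1, the feedback inhibitor of the EGF receptor (-0.47, adjusted p = 2.95e-07), and PTPN12, a tyrosine phosphatase (-0.41, adjusted p = 3.26e-05, all edgeR). NF1, the RAS regulator that SPRED proteins recruit, fell by 0.34. IL17RD, a membrane inhibitor of FGF signalling, rose by 0.57 among neighbours with a median of 0.51. LZTR1, an adaptor for the degradation of RAS proteins, rose by 0.32 and PEBP1, an inhibitor of RAF, by 0.18. SPRED3 fell by 0.30 and did not pass the test without HG-OE replicate 3 (adjusted p = 0.0631). SPRY3 had too few counts to be tested.

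Among 14 other ERK-responsive genes, 2 were higher, 7 lower and 5 not past the threshold, with a median log2 fold change of -0.10. Over all genes tested, 25.9% were higher, 25.9% lower and 5.82% were 2-fold calls. The ephrin receptor genes EPHA4 and EPHA2 fell by 1.37 and 1.16 on the log2 scale, EPHA2 from 426 ± 17.9 to 191 ± 19.5 CPM (adjusted p = 7.72e-09, edgeR), and both were 2-fold calls. PHLDA1 fell by 0.66 and MYC by 0.62. EGR1, an immediate-early factor, rose from 66, 84 and 88 counts to 256, 166 and 326 (log2 fold change 1.53, adjusted p = 3.18e-05, edgeR), and CCND1, which encodes cyclin D1, rose by 0.45. FOS had a log2 fold change of 1.44 that missed the threshold (95% interval 0.18 to 2.71, adjusted p = 0.0523), and without HG-OE replicate 3 it was 0.42 (adjusted p = 0.479). Of the relatives of ETV5, ETV4 had a log2 fold change of 0.020 (95% interval -0.12 to 0.16) and ETV1 one of -0.047 (95% interval -0.24 to 0.15).

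No gene of the RAS-RAF-MEK-ERK cascade was a 2-fold call, where 5.82% of all genes tested were. Of 21 genes, 6 were higher, 6 lower and 9 not past the threshold, and the median log2 fold change was -0.0062. Over all genes tested, 25.9% were higher and 25.9% lower, so these counts are near those of all genes. The falls were led by SHOC2 (-0.44), KSR1 (-0.31) and GRB2 (-0.26), and PTPN11 (0.28) and SHC1 (0.21) were among the genes that rose. KSR1 overlapped between the groups and did not pass the test without HG-OE replicate 3 (log2 fold change -0.23, adjusted p = 0.0823, edgeR). MAPK3, which encodes ERK1, rose by 0.19 (adjusted p = 0.0122, edgeR), among neighbours with a median of 0.16. The kinases that activate it split, with MAP2K1 lower by 0.24 and MAP2K2 at -0.055 (adjusted p = 0.318).

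Receptors and ligands upstream had log2 fold changes from -1.47 to 2.25, with a median of -0.031. Among 17 tested of 19 genes, 7 were higher, 8 lower and 2 not past the threshold. Over all genes tested, 25.9% were higher, 25.9% lower and 5.82% were 2-fold calls. The 4 ligands of the EGF receptor placed on this list all fell. On the log2 scale EREG fell by 1.47, AREG by 0.96, TGFA by 0.63 and BTC by 0.33 (adjusted p from 6.16e-10 to 0.0226, edgeR). EREG, AREG and BTC lie near each other on chromosome 4, among neighbours with medians of -0.32, -0.32 and -0.31. EGFR fell by 0.34. FGF2 fell by 1.25, whereas FGF1 rose by 1.16 and its receptor FGFR1 by 1.03, from 39.6 ± 0.0730 to 80.8 ± 5.90 CPM. PDGFRB rose by 2.25 from a low level, 0.453 ± 0.172 CPM. ERBB3 and FGFR3 were called higher by 2-fold, with log2 fold changes of 1.32 and 1.42, and without HG-OE replicate 3 by 0.74 and 0.33. FGFR4 did not pass the test without that library (log2 fold change 0.10, adjusted p = 0.180).

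JNK and p38 kinases, the main substrates of DUSP1, and their activators included 3 higher, 4 lower and 4 not past the threshold among 11 genes. The median log2 fold change of this list was 0.081. Over all genes tested, 25.9% were higher, 25.9% lower and 5.82% were 2-fold calls. MAP3K5 fell by 1.44, from 41.7 ± 0.581 to 15.4 ± 0.245 CPM (adjusted p = 5.71e-10, edgeR), the only 2-fold call of the list. MAPK8, which encodes JNK1, fell by 0.28 and MAPK9, which encodes JNK2, rose by 0.71. MAPK11 and MAPK12, which encode p38 beta and gamma, rose by 0.57 and 0.28, and MAP2K3, an activator of p38, fell by 0.24.

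**Figure D5:**
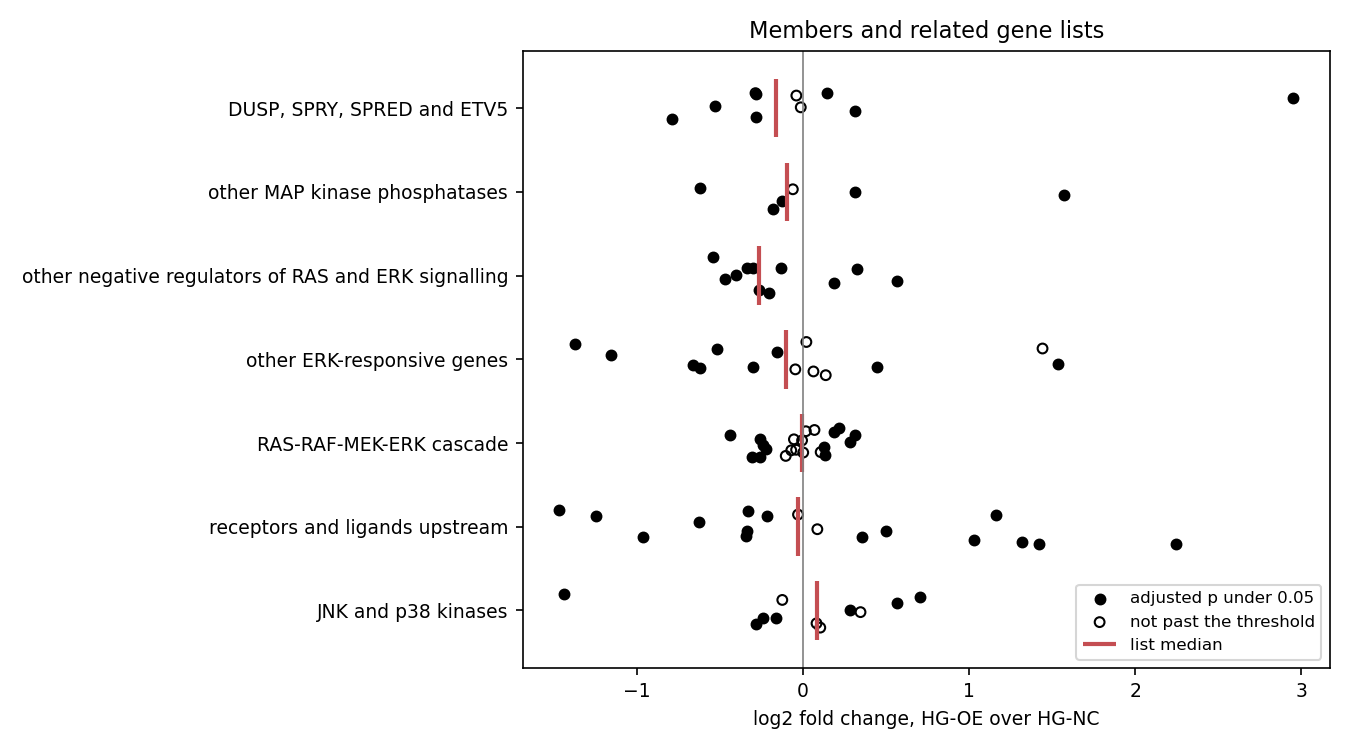
Log2 fold change of HG-OE over HG-NC (x axis) for the 10 genes and for 6 lists of related genes, with filled points for an adjusted p under 0.05, open points for genes not past it and a red line for each list's median. The list medians lie between -0.27 and 0.081, and the points of receptors and ligands and of ERK-responsive genes spread widest among the 6 lists.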

How the data were processed

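Poly(A) RNA of HK-2 cells was sequenced in 3 HG-NC and 3 HG-OE libraries, grouped by their titles. Reads were trimmed and mapped by HISAT2 on GRCh38. The authors deposited counts of uniquely mapped pairs per gene, without normalization, and FPKM values rounded to 2 decimals. The paper names ComBat_seq for batches that it does not list, and whether it entered the counts is not stated. No batch term was fitted.

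Totals were 25507595 to 29444841 counts per library. A count of 0 allows up to 3 counts, and intervals cover counting error only. Counts were fitted in R 4.3.3 with edgeR 4.0.16 (TMM, the default low-count filter, quasi-likelihood test, Benjamini-Hochberg adjustment over 17142 genes). Intervals of log2 fold changes are 95% intervals of that fit, and the biological coefficient of variation was 0.0683. Single values were also compared with exact two-sided permutation tests (scipy 1.17.1). Alternatives used DESeq2 1.42.0 and limma 3.58.1 on log2(FPKM + 1) or log2(FPKM + 0.1). The steps were tested on simulated data. Positions come from GENCODE 44 on GRCh38. Neighbours are tested genes within 10 Mb with a mean of at least 100 counts.

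The 10 genes and the related lists were chosen with earlier results of these data known, and the lists were written from general knowledge. Named from each list were the 3 largest changes past the threshold in each direction and all 2-fold calls. Some values of single genes are not reported here. List genes named beyond this rule, such as BTC, NF1, ETV4 and MAPK3, the ratios, and the sums over families were chosen after the values were seen.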

Additional observations from a re-analysis of the deposited data

How the results depend on the processing

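Over the 14 alternatives with a test of their own, 127 of 138 values of the 10 genes kept their direction and their side of the threshold, 4 were reversed, 6 dropped below the threshold and 1 rose past it. DUSP1, DUSP5, DUSP6, SPRY2, SPRED2 and ETV5 kept theirs under all 14. Removing the neighbours' median gives values with no test of their own. By it the log2 fold change of DUSP1 turned to -0.32 and that of SPRY1 to 0.089, and SPRED2 came to -0.0050. The medians were -0.094 for the 10 genes, -0.085 for other negative regulators, -0.16 for ERK-responsive genes and -0.021 for JNK and p38 kinases. Of the other MAP kinase phosphatases that passed the test in the main fit, 1 then had a value above 0. DUSP4 did not pass in limma, with 1.03 on log2(FPKM + 0.1) and 0.37 on log2(FPKM + 1), with or without the filter on low FPKM, and DESeq2 gave it no adjusted p. None (0) of the 10 genes was then a 2-fold call in DESeq2, in the 3 limma fits or with at least 10 counts required in every library, which drops DUSP4. The median of the 10 genes was -0.11 on log2(FPKM + 1), with or without the filter. In DESeq2 the median was -0.28 and with 10 counts required -0.27. Both of these were taken without DUSP4, which left ETV5 as the middle gene. Other MAP kinase phosphatases had 1 gene higher in DESeq2 and in the 3 limma fits and 1 lower on log2(FPKM + 1) without the filter. Other negative regulators had 1 gene higher on log2(FPKM + 1) with the filter, and 0 higher, 5 lower and a median of -0.18 without it. Receptors and ligands had 4 higher on log2(FPKM + 1), with or without the filter. The median of ERK-responsive genes was -0.15 with 10 counts required, and that of JNK and p38 kinases -0.038 on log2(FPKM + 0.1), -0.031 on log2(FPKM + 1) and 0.018 without the filter. Among all genes, 2-fold calls numbered 997, and 617 with 10 counts required, 1539 with no low-count filter, 144 on log2(FPKM + 1) and 138 without the filter. Apart from the loss of DUSP4 from those medians and 2-fold calls, the cause of these differences was not tested.

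With each library left out in turn, the log2 fold change ran from 0.12 to 0.16 for DUSP1, -0.063 to 3.49 for DUSP4, -0.82 to -0.75 for DUSP5, 0.27 to 0.35 for DUSP6, -0.42 to -0.17 for SPRY1, -0.58 to -0.47 for SPRY2, -0.10 to 0.053 for SPRY4, -0.069 to -0.023 for SPRED1, -0.31 to -0.26 for SPRED2 and -0.32 to -0.23 for ETV5. SPRY4 changed sign without HG-NC replicate 2 (0.0088), HG-OE replicate 1 (0.053) or HG-OE replicate 2 (0.0027). Of the 10 genes 2 to 3 were then higher, 4 to 5 lower and 0 to 1 a 2-fold call, with medians from -0.17 to -0.10. Among MAP kinase phosphatases 1 to 2 were higher and 1 to 3 lower, among negative regulators 2 to 3 and 5 to 8, in the cascade 3 to 6 and 4 to 6 (medians -0.034 to 0.0054), among receptors and ligands 5 to 7 and 7 to 8 (medians -0.13 to 0.11) and among JNK and p38 kinases 3 to 4 and 3 to 5 (medians 0.069 to 0.097). ERK-responsive genes had 2 to 3 higher and medians from -0.15 to -0.076. Over all genes, 7729 to 9355 passed the test and 989 to 1124 were 2-fold calls.

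Deviations from the group means of same-numbered libraries correlated at -0.027, 0.030 and -0.00099 across genes. No pairing by replicate number was seen in these values, which cannot show how the wells were handled. With the replicate number as a block, 3 of the 10 genes were higher and 4 lower, DUSP5 was at -0.79, SPRY2 at -0.53 and DUSP4 at 2.13, and 8849 of all genes passed against 8887 without it. SPRY1, SPRY4 and DUSP4 had at most 309 counts in each library, and their intervals were the widest of the 10 genes.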
